A study of Mus musculus with 4 samples.

Results

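The genes described here are 8 claudins (Cldn1, Cldn2, Cldn3, Cldn4, Cldn7, Cldn8, Cldn15 and Cldn23), occludin (Ocln) and Tjp1, which encodes the scaffold protein ZO-1. They were taken by gene symbol from a deposited expression table, in which 10 of 10 symbols had a row of their own among 22632 genes. RNA was sequenced from mouse small intestinal organoids, epithelial cultures grown from isolated crypts in Matrigel with Egf, Noggin and R-spondin, and harvested 24 hours after seeding. There were 4 libraries. Yap-/- organoids carried floxed Yap on both alleles together with VillinCre, a Cre recombinase made in the intestinal epithelium. Their reference, Yap+/-, carried the same VillinCre with a single floxed allele, so it had also lost a copy of Yap. In YapTg organoids, doxycycline switches on a transgene for wild-type Yap through a Cre-dependent transactivator. They were cultured with doxycycline added at seeding, or without it. The labels give the dose as 1.5 mg/ml, and nothing else in the sources used here checks that unit. The labels do not say which Cre drives the transactivator, how many mice gave the crypts, or their age. Each group was 1 library, so the differences between them have no replicate spread behind them and no p-values, and each interval given covers counting error alone.

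Tight junctions seal the space between neighbouring epithelial cells near the apical surface. Claudins are membrane-spanning proteins that polymerise into the strands of the junction, and the mixture of claudins sets which ions can pass: some seal the cleft, while others, such as claudin-2 and claudin-15, form pores for cations. Occludin spans the membrane in the same strands, and ZO-1 binds the tails of claudins inside the cell and ties them to actin. In the intestine claudin-2 is a crypt protein, and claudin-15 is a main cation channel of the small bowel.

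Levels are given in RPKM, which divides the reads of a gene by its length and by the size of the library, and a gene was called higher or lower when the ratio of (RPKM + 1) reached 2-fold and the higher library had at least 1 RPKM. Library totals, solved from the values as described below, were 67716822 reads in Yap-/- and 56926423 in Yap+/- organoids, and 75269003 with and 44934170 without doxycycline. Yap1 matched the labels, with 3.35 RPKM in Yap-/- against 16.7 RPKM in Yap+/- organoids, and 1039 RPKM with against 25.1 RPKM without doxycycline. Epithelial identity was plain in all 4 libraries, with the adhesion molecule gene Epcam between 335 and 394 RPKM. The 8 stromal markers summed to between 0.489 and 3.61 RPKM and the 5 endothelial markers to between 0.117 and 0.233 RPKM, and the endothelial genes Cdh5 and Emcn were listed at 0 in all 4 libraries. The 7 immune markers summed to between 3.83 and 7.72 RPKM.

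Of the 10 genes, 8 were expressed at 1 RPKM or more in every library and 2, Cldn1 and Cldn8, stayed below it in every library. In YapTg organoids with doxycycline the pore-forming Cldn2 and Cldn15 were 2.98-fold and 2.76-fold lower than without it, while Cldn4 was 3.02-fold and Tjp1 4.37-fold higher. In Yap-/- organoids Cldn4 was 2.07-fold lower than in Yap+/- organoids, and none of the other genes was called. The promoters of the 4 genes called in either comparison are printed here, because these genes carry the differences described below. Each runs from 250 bases before to 50 after the annotated start, 5′ to 3′ on the strand of the gene, as listed by RefSeq for GRCm38.p6, while the reads were aligned to mm9. Capitals mark the letters of 3 searched motifs, the TEAD core GGAATG, the AP-1 site TGANTCA and the Cdx core CATAAA, each on either strand. The windows are chrX:139800558-139800857 (+) for Cldn2, chr5:136967619-136967918 (+) for Cldn15, chr5:134946885-134947184 (-) for Cldn4 and chr7:65371195-65371494 (-) for Tjp1.
Cldn2: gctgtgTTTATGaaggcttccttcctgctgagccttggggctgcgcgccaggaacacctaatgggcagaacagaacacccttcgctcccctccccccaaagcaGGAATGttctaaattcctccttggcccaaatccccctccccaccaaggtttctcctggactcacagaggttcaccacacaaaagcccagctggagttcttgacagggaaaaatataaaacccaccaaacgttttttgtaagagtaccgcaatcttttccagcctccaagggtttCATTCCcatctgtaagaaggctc
Cldn15: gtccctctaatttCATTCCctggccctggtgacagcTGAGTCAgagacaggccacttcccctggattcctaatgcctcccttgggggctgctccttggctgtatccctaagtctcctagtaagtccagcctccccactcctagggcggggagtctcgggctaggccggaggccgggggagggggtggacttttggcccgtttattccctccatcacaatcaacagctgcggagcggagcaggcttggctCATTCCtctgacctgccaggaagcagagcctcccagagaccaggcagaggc
Cldn4: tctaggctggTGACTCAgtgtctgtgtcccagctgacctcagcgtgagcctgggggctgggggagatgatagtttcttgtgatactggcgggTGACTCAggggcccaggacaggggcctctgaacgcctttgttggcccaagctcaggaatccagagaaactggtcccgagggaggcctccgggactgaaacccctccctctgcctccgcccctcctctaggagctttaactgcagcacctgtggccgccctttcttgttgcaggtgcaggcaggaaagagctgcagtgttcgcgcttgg
Tjp1: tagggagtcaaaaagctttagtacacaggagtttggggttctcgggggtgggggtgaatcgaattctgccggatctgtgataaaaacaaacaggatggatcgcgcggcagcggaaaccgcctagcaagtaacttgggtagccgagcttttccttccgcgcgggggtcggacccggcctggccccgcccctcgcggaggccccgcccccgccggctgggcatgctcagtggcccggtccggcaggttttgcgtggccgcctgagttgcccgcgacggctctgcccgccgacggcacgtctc

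The Cldn2 window held the TEAD letters at -147 and at 27 from the annotated start and the Cdx letters at -244. The Cldn15 window held the TEAD letters at -237 and -1 and the AP-1 letters at -214. The Cldn4 window held the AP-1 letters at -240 and -158 and neither of the other motifs, and the Tjp1 window held none of the 3. Among 32851 promoter windows of this length, 14.7% held the TEAD letters, 7.8% the AP-1 letters and 11.9% the Cdx letters. A match describes only letters within 300 bases, so it shows no binding, and the windows of the other members differed too: of 8 members with a window in the table, only Cldn7 among the remaining 4 held any of the letters, the TEAD core at -70. The Tjp1 window was also the richest of these 4 in CG pairs, with 31, against 5 in Cldn2, 7 in Cldn15 and 9 in Cldn4.

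Cldn15 encodes a cation channel of the small intestinal junction. Yap-/- organoids had 248 RPKM against 191 RPKM in Yap+/- organoids, and YapTg organoids had 61.3 RPKM with and 169 RPKM without doxycycline. The induced library was the low one, and the other 3 lay between 169 and 248 RPKM. With doxycycline Cldn15 was 2.76-fold lower (95% counting interval 2.69 to 2.83), and in Yap-/- organoids it was 1.30-fold higher (1.28 to 1.32), below the 2-fold call.

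Cldn2 encodes the crypt claudin whose pore passes cations and water. Its level was 72.3 RPKM in Yap-/- against 76.6 RPKM in Yap+/- organoids, and 33.9 RPKM with and 101 RPKM without doxycycline. Again the induced library was the lowest, here 2.98-fold lower (95% counting interval 2.90 to 3.07). The ratio of Yap-/- to Yap+/- was 0.944 (0.923 to 0.966), smaller in size than the ratio of 0.757 between Yap+/- and uninduced YapTg organoids.

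**Figure D1:**
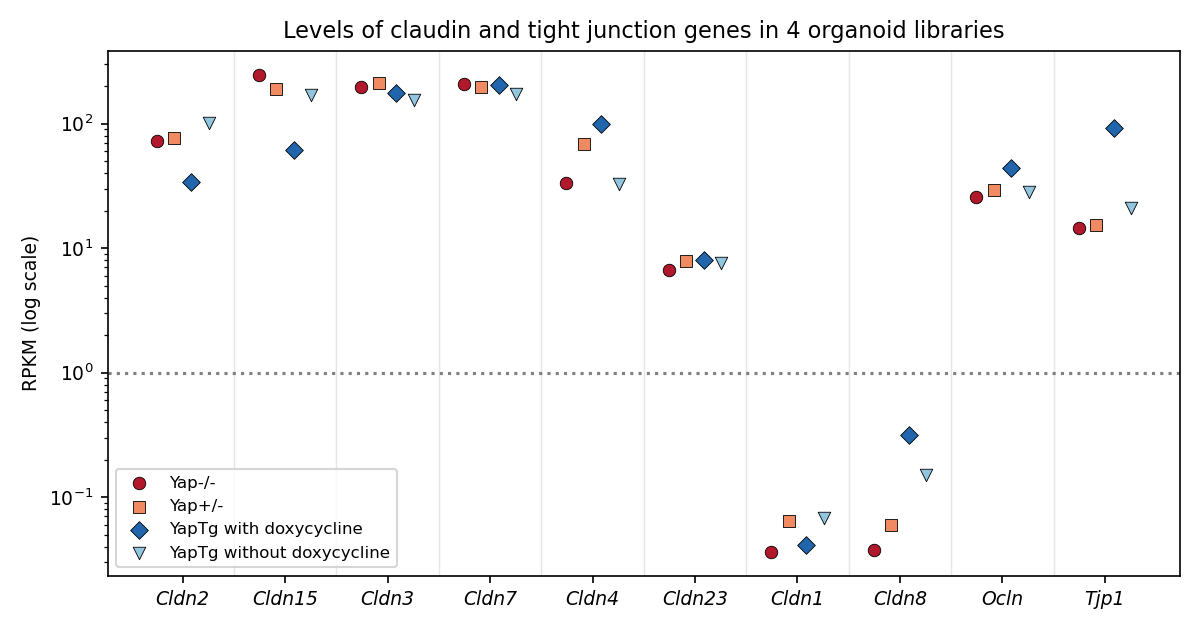
RPKM on a log scale for each of the 10 genes in the 4 libraries, with 1 point per library and a dotted line at 1 RPKM. The induced YapTg library is the lowest for Cldn2 and Cldn15 and the highest for Cldn4, Ocln and Tjp1, while Cldn1 and Cldn8 lie below the line in every library.

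Cldn4 encodes a claudin mostly counted among the sealing members. There were 33.2 RPKM in Yap-/- against 68.7 RPKM in Yap+/- organoids, and 99.5 RPKM with and 33.0 RPKM without doxycycline. The Yap-/- and the uninduced library lay side by side at the low end, the Yap+/- library in between, and the induced library at the top. Cldn4 was 2.07-fold lower in Yap-/- than in Yap+/- organoids (95% counting interval 1.99 to 2.15) and 3.02-fold higher with than without doxycycline (2.90 to 3.15). The loss call is near the threshold: its log2 ratio was -1.03 on the (RPKM + 1) scale and -0.95, no longer called, with a pseudocount of 5. The Yap+/- library was itself 2.08-fold above the uninduced YapTg library (1.99 to 2.18), 2 libraries in which Yap was neither fully lost nor induced. Both that ratio and the loss ratio use the same Yap+/- library, so a low level after loss of Yap and a high level in that particular library cannot be told apart. Of 10710 genes at the floor, 54 were further lower than Cldn4 in Yap-/- organoids.

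Cldn3, a sealing claudin, is the neighbour of Cldn4: in the GENCODE M21 annotation no protein-coding gene lies between them on chromosome 5, and they are transcribed from opposite strands. Its level was 196 RPKM in Yap-/- against 213 RPKM in Yap+/- organoids, and 175 RPKM with and 155 RPKM without doxycycline. It was 1.13-fold higher with doxycycline (95% counting interval 1.10 to 1.16) and 1.09-fold lower in Yap-/- organoids (1.06 to 1.11). Its largest ratio was that of Yap+/- over uninduced YapTg organoids, 1.38 (1.34 to 1.41), and it was not called in any comparison. The level of Cldn3 over that of Cldn4 was 5.89 in Yap-/- and 3.10 in Yap+/- organoids, and 1.76 with and 4.69 without doxycycline. The single exon of Cldn3 overlaps 40 bases of the antisense gene Wbscr25, and the strand setting of the counting is not given, so a small part of its reads may belong to that gene.

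Cldn7, which also lies along the basolateral membrane and is needed for an intact intestinal epithelium in mice, was the most even of the abundant claudins. It had 207 RPKM in Yap-/- against 199 RPKM in Yap+/- organoids, and 206 RPKM with and 173 RPKM without doxycycline. It was 1.04-fold higher in Yap-/- organoids (95% counting interval 1.02 to 1.06) and 1.19-fold higher with doxycycline (1.17 to 1.22). Cldn23 was expressed at a much lower level, with 6.66 RPKM in Yap-/- against 7.82 RPKM in Yap+/- organoids, and 7.99 RPKM with and 7.59 RPKM without doxycycline. Its doxycycline ratio of 1.05 had a counting interval of 0.955 to 1.16, which includes no difference, and its ratio of 0.852 in Yap-/- over Yap+/- had an interval of 0.773 to 0.939, which does not.

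Cldn1, a claudin of barriers such as the epidermis, and Cldn8, a sealing claudin of the distal bowel and kidney tubule, were nearly silent. Cldn1 had 0.0364 RPKM in Yap-/- against 0.0649 RPKM in Yap+/- organoids, and 0.0409 RPKM with and 0.0685 RPKM without doxycycline, which came out at 8, 12, 10 and 10 reads in the same order. No difference in Cldn1 was detectable at this depth, since the interval of its loss ratio ran from 0.199 to 1.49 and that of its induction ratio from 0.223 to 1.60. Cldn8 had 6 reads in Yap-/- and 8 in Yap+/- organoids, and 56 reads with and 16 without doxycycline. Its level was 0.316 RPKM with and 0.151 RPKM without doxycycline, a ratio of 2.09 (1.18 to 3.90) at levels too low for a call.

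Tjp1, the ZO-1 gene, had the highest induction ratio of the 10 genes. The gene had 14.5 RPKM in Yap-/- against 15.3 RPKM in Yap+/- organoids, and there were 92.3 RPKM with and 21.1 RPKM without doxycycline. Only the induced library was high, 4.37-fold above the uninduced one (95% counting interval 4.26 to 4.48), and 178 of 11108 genes were further higher. In Yap-/- organoids its ratio was 0.950 (0.918 to 0.982). Ocln had 25.6 RPKM in Yap-/- against 29.5 RPKM in Yap+/- organoids, and 43.7 RPKM with and 28.5 RPKM without doxycycline. It was 1.53-fold higher with doxycycline (1.49 to 1.58) and 1.15-fold lower in Yap-/- organoids (1.12 to 1.19), both below the 2-fold call. Its neighbour on chromosome 13 in the GENCODE M21 annotation, the tricellulin gene Marveld2, had 13.8 RPKM with and 11.5 RPKM without doxycycline.

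**Figure D2:**
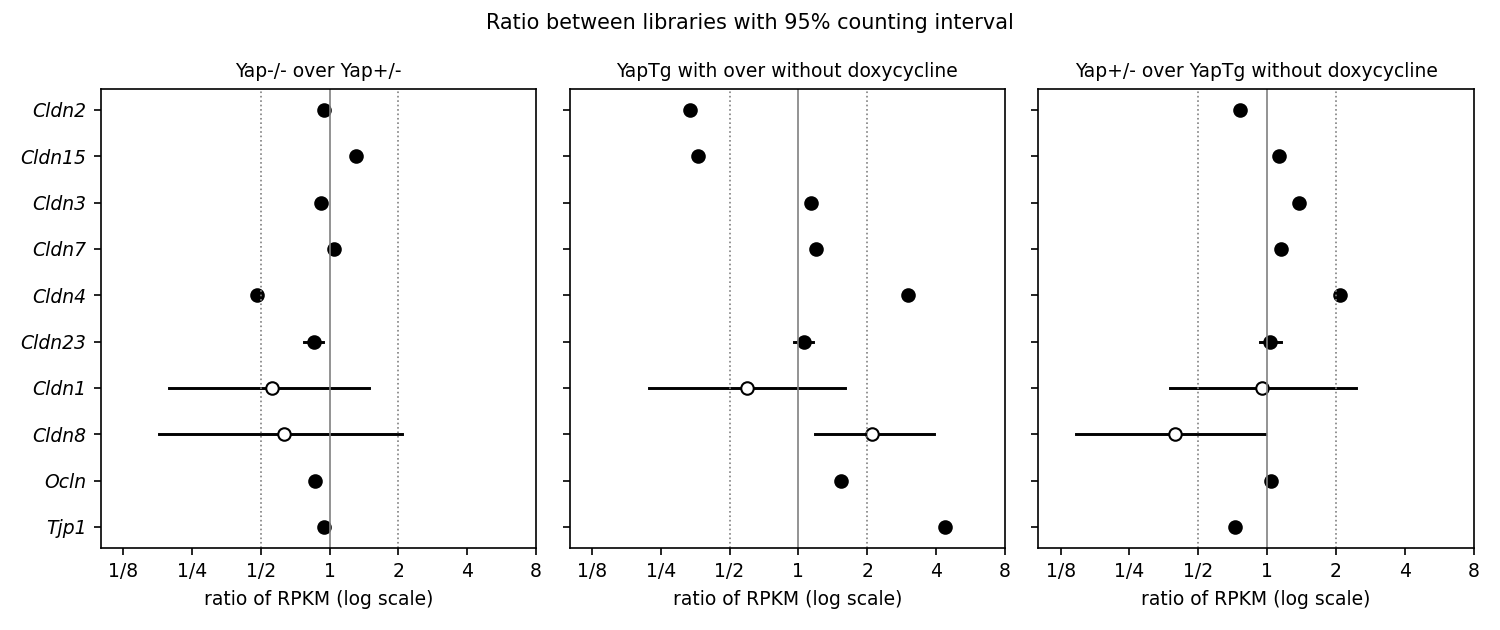
Ratio of RPKM on a log scale for each gene in 3 comparisons, with the 95% counting interval as a line; open circles mark genes below 1 RPKM in both libraries, and dotted lines mark 2-fold. Among the filled circles, only Cldn4 lies outside the lines in Yap-/- over Yap+/- and, at 2.08, in Yap+/- over uninduced YapTg, while Cldn2, Cldn15, Cldn4 and Tjp1 do so with over without doxycycline. The open circle of Cldn8 is also outside them, at 2.09 with over without doxycycline and at 0.395 in Yap+/- over uninduced YapTg.

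Set against Yap+/- organoids, Yap-/- organoids had 0 of these 8 genes higher by 2-fold and 1 lower. Over all genes tested, 0.336% were higher and 0.570% lower by the same rule, 0.906% in all. The median log2 ratio of (RPKM + 1) was -0.10 for the 8 genes and 0.05 for all 10710 genes. With over without doxycycline, 2 of the 8 were higher and 2 lower, where 5.85% of all genes were higher and 5.80% lower, 11.6% in all. The median log2 ratio was 0.22 for the 8 genes and -0.04 for all 11108 genes. In Yap+/- over uninduced YapTg organoids, which share a library with each of those comparisons, 1 of the 8 was higher and 0 were lower, against 1.11% and 0.726% of all genes, 1.84% together. That split of 121 higher and 79 lower genes became 171 and 62 after median-ratio scaling, which moved the median log2 ratio of all genes from -0.11 to 0.01. Loss and induction share no library. The log2 ratios had opposite signs in them for 6 of the 8 genes (Cldn3, Cldn4, Cldn15, Cldn23, Ocln and Tjp1) and for 64.4% of all genes at the floor in both, so opposite signs were common throughout the table.

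The differences changed the make-up of the claudin transcripts more than their sum. The 8 claudins summed to 763 RPKM in Yap-/- against 755 RPKM in Yap+/- organoids, and to 585 RPKM with and 639 RPKM without doxycycline. The pore-forming Cldn2 and Cldn15 together made up 42.0% of this sum in Yap-/- and 35.4% in Yap+/- organoids, and 16.3% with and 42.3% without doxycycline. The other 6 claudins summed to 443 RPKM in Yap-/- against 488 RPKM in Yap+/- organoids, and to 490 RPKM with and 369 RPKM without doxycycline. In order of level, Cldn15 led in Yap-/- organoids ahead of Cldn7 and Cldn3, and Cldn3 led in Yap+/- organoids ahead of Cldn7 and Cldn15. With doxycycline the order was Cldn7, Cldn3, Cldn4, Cldn15 and Cldn2, and without it Cldn7, Cldn15, Cldn3, Cldn2 and Cldn4. Cldn15 over Cldn4 was 7.47 in Yap-/- and 2.77 in Yap+/- organoids, and 0.616 with and 5.12 without doxycycline, so the order of these 2 genes was turned round in the induced library. These sums rest on 100358 claudin reads in Yap-/-, 82298 in Yap+/-, 79630 with doxycycline and 58025 without it.

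**Figure D3:**
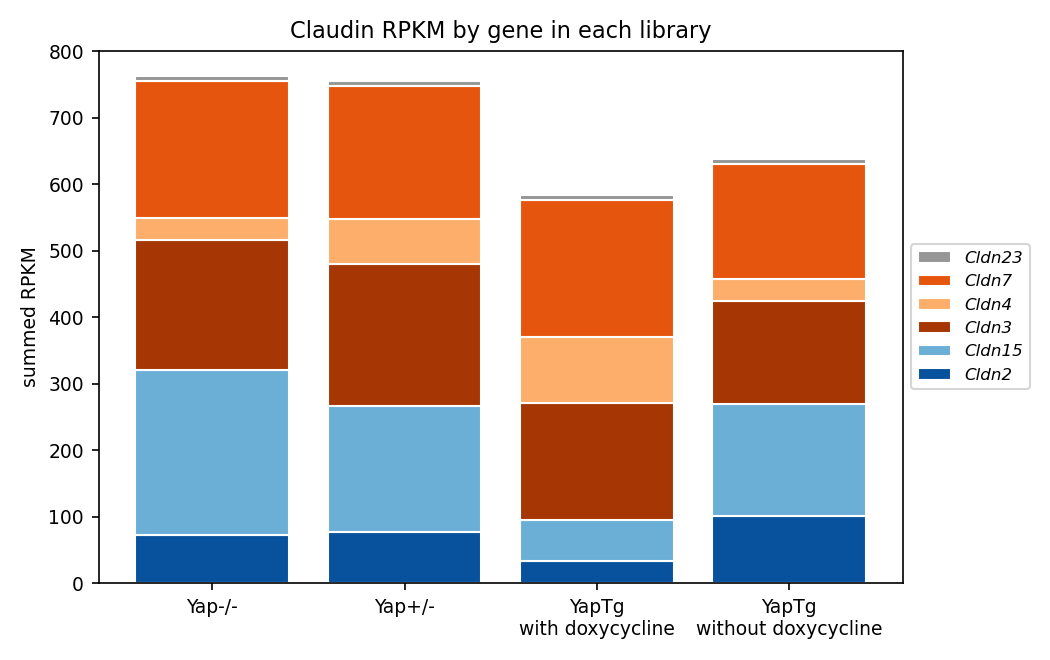
Summed RPKM of 6 claudins in each library, stacked by gene; Cldn1 and Cldn8 are too low to draw. The blue part at the base, Cldn2 and Cldn15, is 95.2 RPKM with doxycycline and between 267 and 320 RPKM in the other 3 libraries.

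Many markers of differentiated and crypt base cells were lower in the induced library. With doxycycline 9 of 13 enterocyte markers were lower by the 2-fold rule, where 5.80% of all genes were. The summed level of the list was 1721 RPKM with and 5218 RPKM without it. Fabp1, named after its values were seen, weighed heavily in that sum, with 106 RPKM with and 1938 RPKM without doxycycline. Alpi, Apoa1, Vil1 and Anpep, named likewise, were not called by that rule, with ratios of 0.945, 0.953, 0.938 and 0.561. The 9 markers of goblet cells were lower by that rule without exception, summing to 692 RPKM with and 2715 RPKM without doxycycline. Of 9 crypt base stem cell markers at the floor, 6 were lower, and the whole list of 10 summed to 76.8 RPKM with and 575 RPKM without it. Of 8 Paneth cell markers 3 were lower, summing to 7765 RPKM with and 11762 RPKM without it. In Yap-/- against Yap+/- organoids the same sums were 11346 and 8201 RPKM for enterocyte, 3466 and 2631 for goblet, 620 and 340 for stem cell and 9531 and 4777 for Paneth markers. There 3 Paneth and 1 stem cell marker were called higher, where 0.336% of all genes were. Of the enterocyte and goblet markers 0 were called, where 0.906% of all genes were called either way. In Yap+/- over uninduced YapTg organoids 3 Paneth and 1 stem cell marker were called lower and 0 higher, where 0.726% of all genes were lower. There 1 of 9 goblet markers was also lower, and 3 of 13 enterocyte markers were higher, where 1.11% of all genes were higher. Both comparisons use the same Yap+/- library. The calls were not all on the same genes. Ang4 was called only after loss of Yap, and Lyz1 only between the reference libraries. Olfm4 had 501 RPKM in Yap-/-, 244 in Yap+/- and 424 in uninduced YapTg organoids. Lgr5 had 2.51, 1.90 and 6.15 RPKM in the same order, so its high library was the uninduced one. These genes were named after their values were seen. For Paneth and stem cell markers lowest in Yap+/- among these libraries, a high level after loss of Yap and a low level in Yap+/- cannot be told apart. No gene of these lists was at 0 in any library. The part of cell type make-up in the Cldn2, Cldn15, Cldn4 and Tjp1 ratios was not tested, and in whole organoids fewer cells of a type and less RNA per cell cannot be told apart. Organoids without the transgene were not given doxycycline, so what the drug does and what YAP does cannot be told apart either.

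The other claudin rows summed to 31.4 RPKM in Yap-/- against 32.3 RPKM in Yap+/- organoids, and to 57.4 RPKM with and 33.8 RPKM without doxycycline. Of 18 further claudin rows only Cldn12, Cldn25 and Cldn26 reached 1 RPKM anywhere, and the current names of the last 2 identifiers are Cldnd1 and Tmem114. Cldn12, a claudin without the usual tail that binds ZO-1, had 11.4 RPKM in Yap-/- against 11.8 RPKM in Yap+/- organoids, and 21.2 RPKM with and 14.6 RPKM without doxycycline. The Cldn25 row had 18.5 RPKM in Yap-/- against 18.9 RPKM in Yap+/- organoids, and 33.7 RPKM with and 17.8 RPKM without doxycycline, 1.89-fold higher (95% counting interval 1.8 to 1.99). The Cldn26 row was at 1.19 RPKM with doxycycline and listed at 0 in the other 3 libraries. With over without doxycycline it was called higher, 1 of 3 such rows at the floor, where 5.85% of all genes were higher. In all, 7 to 11 of the 18 rows were listed at 0 in each library.

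The other membrane proteins of the tight junction had 12 members. This list and the scaffold and adherens lists below were chosen with earlier results of these data known, so their counts describe the lists and test nothing. With over without doxycycline, 9 reached the floor, 3 of them called higher and 0 lower, where 5.85% of all genes were higher and 5.80% lower, with a median log2 ratio of 0.25. Ildr1, an angulin that marks tricellular junctions, had 11.8 RPKM with and 1.06 RPKM without doxycycline, 11.2-fold higher (95% counting interval 9.69 to 12.9). The related Ildr2 had 1.81 RPKM with and 0.0108 RPKM without it. Ildr2 reached the floor only in the induced library, so it entered the count through the library where it was high. F11r, which encodes the junctional adhesion molecule JAM-A, had 125 RPKM with and 51.1 RPKM without doxycycline, a 2.45-fold difference. At the other end were the adhesion gene Esam, with 0.417 RPKM with and 1.34 RPKM without doxycycline, and the MARVEL-domain gene Marveld3, with 11.8 and 10.5 RPKM in the same order. Esam was 3.22-fold lower in RPKM (2.48 to 4.2), was not called with a pseudocount of 1, and was called lower with one of 0.1. In Yap-/- against Yap+/- organoids 8 reached the floor and 0 were called in either direction, where 0.906% of all genes were. The list median was -0.08. Esam (1.29 and 0.809 RPKM) and the angulin gene Lsr (38.4 and 37.4 RPKM) had the highest ratios there, and Ildr1 (1.12 and 1.54 RPKM) and F11r (49.2 and 57.0 RPKM) the lowest.

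The scaffold and polarity proteins under the junction, to which ZO-1 belongs by function, had 28 listed members besides Tjp1. With over without doxycycline 26 reached the floor, of which 7 were called higher and 0 lower, where 5.85% of all genes were higher and 5.80% lower, with a median log2 ratio of 0.47. Amotl2, an angiomotin that binds YAP, had 54.5 RPKM with and 0.782 RPKM without doxycycline, and reached the floor only in the induced library, as did Amotl1. Both are among the 7, so the count includes genes that entered it only through the library where they were high. Pard6b, a subunit of the apical Par polarity complex, had 77.9 RPKM with and 14.5 RPKM without it, 5.38-fold higher (95% counting interval 5.15 to 5.63). Its kinase partner gene Prkci had 45.8 RPKM with and 15.4 RPKM without doxycycline, 2.96-fold higher. Wwc1, which encodes the Hippo scaffold KIBRA, was 4.84-fold higher, with 119 RPKM with and 24.5 RPKM without doxycycline. The cingulin gene Cgn, whose product links ZO proteins to the cytoskeleton, had 66.6 RPKM with and 26.9 RPKM without it, and its relative Cgnl1 had 6.49 and 1.13 RPKM in the same order. Amotl1, Prkci, Cgn and Cgnl1 were singled out after their values were seen. The lowest ratios belonged to Mylk, the kinase gene of myosin light chain, with 5.21 RPKM with and 7.31 RPKM without doxycycline, and to Tjp3, which encodes the scaffold ZO-3, with 47.0 RPKM with and 58.4 RPKM without it.

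In Yap-/- against Yap+/- organoids 23 scaffold and polarity genes reached the floor and 0 were called, where 0.906% of all genes were called either way. The list median was -0.05 with 18 of 23 below 0, where 34.5% of all genes were below 0. The lowest ratios were those of Wwc1, with 10.8 RPKM in Yap-/- against 21.7 RPKM in Yap+/- organoids, and Pard6b, with 8.51 and 14.6 RPKM in the same order. Their log2 ratios of (RPKM + 1) were -0.94 and -0.72. The uninduced library held 24.5 RPKM of Wwc1 and 14.5 RPKM of Pard6b, near the Yap+/- values and above the Yap-/- values, whereas for Cldn4 it lay beside Yap-/-. The highest ratios were those of Mylk (9.10 and 7.46 RPKM) and the ZO-1 relative Magi3 (7.67 and 6.98 RPKM).

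Adherens junctions and desmosomes lie below the tight junction and hold cells together through cadherins. Of 24 listed genes 22 reached the floor, 4 of which were called higher and 0 lower with doxycycline, where 5.85% of all genes were higher and 5.80% lower, with a median log2 ratio of 0.65. The plakin genes Ppl and Dsp led, Ppl with 26.3 RPKM with and 5.13 RPKM without doxycycline (5.14-fold, 95% counting interval 4.86 to 5.43), and Dsp with 129 and 50.2 RPKM in the same order (2.58-fold). The others called higher were Mllt4, which encodes afadin, and the plakophilin gene Pkp3, both named after their values were seen. The related Pkp4 was 2.01-fold higher in RPKM (1.94 to 2.08) but was not called with the pseudocount of 1. The nectin genes Pvrl1 (2.18 and 5.26 RPKM) and Pvrl3 (9.22 and 12.3 RPKM) had the lowest ratios. Pvrl1 was 2.41-fold lower in RPKM (2.20 to 2.63), was not called with a pseudocount of 1, and was called lower with one of 0.1. The E-cadherin gene Cdh1, named after its values were seen, had 280 RPKM with and 170 RPKM without doxycycline, 1.65-fold higher. In Yap-/- against Yap+/- organoids 0 of the 22 were called, where 0.906% of all genes were called either way. The list median was -0.07. Pkp1 (11.3 and 8.98 RPKM) and Pvrl3 (13.7 and 12.6 RPKM) were at the upper end there, and Pkp4 (10.98 and 14.8 RPKM) and Ppl (3.12 and 4.37 RPKM) at the lower end.

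**Figure D4:**
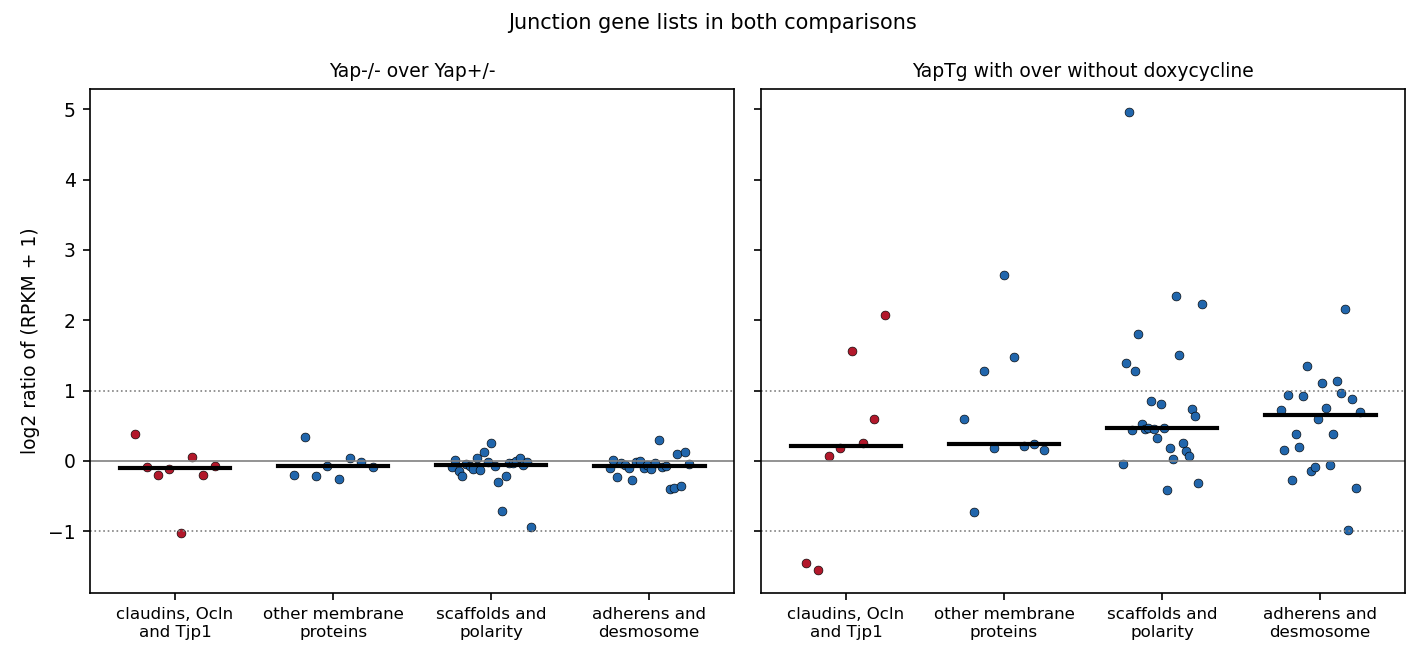
Log2 ratio of (RPKM + 1) for each gene at the floor in 4 junction lists, with 1 point per gene, a bar at the list median and dotted lines at 2-fold. In Yap-/- over Yap+/- the medians lie between -0.10 and -0.05, and with over without doxycycline between 0.22 and 0.65, with Cldn2 and Cldn15 below the lower line.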

How the data were processed

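RNA-seq was deposited as a single table of 22632 genes with 4 value columns, all of them used. Per the submitters' processing notes, CASAVA 1.8, FastQC and TopHat 1.4.1 were used with mm9, and per the labels' protocols the libraries were made from total RNA with a TruSeq RNA kit. How reads were counted, on which annotation, with which strand setting and filters, and what was done with reads that match several places, is not given in the sources used here. No header names the unit: the deposited values were identified as RPKM, since they come out as whole reads (within 0.0005) for 17375 of 17378 genes above 0 once multiplied by a whole length and by the library total. Totals were solved with GENCODE M21 exon lengths. The shortest whole length was taken, or the GENCODE length where it gave whole reads and fewer than 100 reads came from the shortest, so reads of rare genes are less certain.

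Log2 ratios used RPKM plus 1, which understates the difference of low genes, while folds and ratios in the text are of RPKM without it. Counting intervals are 95% exact conditional binomial (Clopper-Pearson) intervals on these whole reads. They cover counting error alone and no spread between cultures, since each group is 1 library. Copies made by PCR are not separate molecules, so the intervals may be too narrow even for that error. The recovery of reads and the 2-fold calls were tried on simulated reads with counting error alone. That trial had no spread between cultures, so it cannot show how far the calls would hold in other cultures. With 1 library per group no test was run. Genes named were the 10 members, Yap1, other claudins at 1 RPKM or more, and in each of 3 wider junction lists the 2 highest and 2 lowest log2 ratios of loss and of induction. Epcam, Marveld2, Pkp4 in the induction pair, 2 endothelial markers and the genes so marked in the text were named outside this rule. The members and lists were chosen with earlier results of these data known. Of the identifiers, 91.7% matched a table of current names. Python 3.11.15, numpy 2.4.6, scipy 1.17.1 and pandas 2.3.3 were used.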

Additional observations from a re-analysis of the deposited data

How the results depend on the processing

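The alternatives were thresholds of 1.5-fold and 4-fold, scaling by median ratio or by upper quartile, a floor raised to 5 RPKM or dropped, and a pseudocount of 0.1 or 5. Counts of called members kept within 1.5 times in 42 of 48 repeats, which include counts that were 0 in both settings. Log2 ratios of single members lay inside the counting interval of their RPKM ratio in 83 of 120. That interval takes no pseudocount, so some ratios with a pseudocount of 1 already lay outside it, such as Tjp1 and Cldn8 with over without doxycycline. Of the called ratios 0 changed sign, which a pseudocount cannot do and scaling factors of 0.949 to 1.04 could not do at 2-fold. Ratios of the recovered reads were also computed, but they use the reads behind the intervals and are no separate check. The calls on Cldn4 between Yap-/- and Yap+/-, and between Yap+/- and uninduced YapTg organoids, are near the threshold: with a pseudocount of 5 each count was 0. At 4-fold, 0 members were called in those comparisons (all genes 1 higher and 8 lower, then 15 and 20). With over without doxycycline 1 member was higher and 0 were lower (all genes 191 and 121). The median log2 ratio of the members in Yap-/- over Yap+/- was -0.10 unscaled, -0.15 with median-ratio and -0.14 with upper-quartile scaling. The median of all genes was 0.049, 0.009 and 0.013 in the same order. In Yap+/- over uninduced YapTg organoids the members had 0.11, 0.25 and 0.22, and all genes -0.11, 0.01 and -0.02. The member median there was 0.044 without a floor, which adds Cldn1 and Cldn8. The wider junction lists had 14 genes higher and 0 lower with doxycycline, 5 and 0 at 4-fold (all genes 191 and 121), and 27 and 2 at 1.5-fold (all genes 1267 and 1447). The 2 lower genes, Esam and Pvrl1, were also called with a pseudocount of 0.1 (all genes 838 higher and 915 lower). In Yap-/- organoids 2 of these genes, Wwc1 and Pard6b, were lower at 1.5-fold (all genes 168). Among all genes, a pseudocount of 0.1 gave 66 higher and 112 lower genes in Yap-/- organoids against 36 and 61 with a pseudocount of 1, and a pseudocount of 5 gave 20 and 19. With over without doxycycline, a pseudocount of 5 gave 350 higher and 323 lower genes against 650 and 644. No replicate could be left out, and no paired analysis was possible because each group has 1 library. Depth limits Cldn1 and Cldn8, which had between 6 and 56 reads.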
